A study of Homo sapiens with 12 samples.

Results

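The metallothioneins and zinc transporters of HepG2 cells, an established human liver cancer cell line, were followed across 2 glucose levels with and without valproic acid (VPA), an antiepileptic drug that inhibits histone deacetylases. The members are the genes whose symbol names a type 1 metallothionein, MT2A, the factors MTF1 and MTF2, or a member of the SLC30A or SLC39A family, and 28 of the 16389 genes in the count table met this rule. They are 6 metallothioneins, both factors, 8 SLC30A genes and 12 SLC39A genes. LG cells were kept in 5.5 mM glucose and HG cells were exposed to 20 mM for 48 h. LGV and HGV cells had the same glucose levels plus 1 mM VPA for 12 h. Each group held 3 libraries of poly(A) RNA. Nothing states that the replicates came from separate cultures, so p-values measure only the spread between these libraries, which may be technical. Whether cells without VPA were harvested with the VPA cells or 12 h earlier is not stated, and culture time and VPA could then not be told apart.

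Metallothioneins are small cysteine-rich proteins that bind zinc, copper and cadmium and buffer free zinc in the cell. MTF1 senses zinc and binds metal response elements (MREs) in promoters such as those of the metallothioneins and SLC30A1, whereas MTF2, despite its name, is known as an accessory protein of the Polycomb repressive complex PRC2. SLC30A (ZnT) proteins move zinc out of the cytosol, to the outside or into organelles, and SLC39A (ZIP) proteins move it into the cytosol. In the liver, SLC39A14 is known for its induction in inflammation and for the uptake of manganese and iron, and SLC30A10 for the export of manganese.

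Between 29798442 and 45572694 reads per library were counted on genes, and TMM scaling factors ran from 0.879 to 1.095. Levels are given in CPM, read counts scaled to library size with these factors. A count of 3 reads, taken as a floor, stood for 0.0713 to 0.112 CPM, a limit that covers counting error only. All 10 hepatocyte markers examined were in the table, and albumin (ALB) stood at 18900 to 29400 CPM. Their summed level was 40140 to 41050 CPM in LGV, 47140 to 61760 in HGV, 52180 to 58840 in LG and 53200 to 61090 in HG. Of 10 markers of other cells, 4 were in the table, with summed levels of 3.82 to 5.31 CPM in the low glucose groups and 7.22 to 9.81 CPM in the high glucose groups. The part of these markers in the results was not tested. In bulk RNA, fewer cells that express a gene and less of its RNA per cell cannot be told apart.

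All 6 metallothionein genes lie on GRCh37 chr16:56598985-56718108, a stretch of 119.1 kb with 16 annotated metallothionein loci, 11 of them protein coding. Promoter windows from RefSeq (assembly GRCh38.p14, 250 bases before to 50 after a start) were placed on GRCh37 by exact match, and 22 of 28 members had one. MT1A, MT1E, MT1F, MT1G, SLC39A4 and SLC39A14 had none. The core of the MRE was searched as TGCACNC and TGCGCNC on both strands. At least 1 core was found in 29.6% of all 35116 windows, at least 2 in 8.6%, at least 3 in 2.3% and at least 5 in 0.162%. Of the 22 members, 14 had at least 1 core, 4 at least 2, 2 at least 3 and 1 at least 5. The members were counted by the window with most cores of each gene, so the shares are not matched. The windows of 4 genes described here are shown 5′ to 3′, with the cores in capitals: those of 2 metallothioneins, of SLC30A1, a known target of MTF1, and of SLC30A10, in which no core was found. SLC30A10 had 2 windows, both without a core, and only the first is shown.
MT2A, chr16:56642246-56642545, plus strand, 8 cores: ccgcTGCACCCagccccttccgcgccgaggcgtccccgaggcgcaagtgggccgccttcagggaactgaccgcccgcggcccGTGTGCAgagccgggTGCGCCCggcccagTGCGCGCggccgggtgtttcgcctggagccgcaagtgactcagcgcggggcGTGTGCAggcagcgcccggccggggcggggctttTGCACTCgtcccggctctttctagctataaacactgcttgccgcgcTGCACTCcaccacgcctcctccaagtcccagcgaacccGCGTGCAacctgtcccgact
MT1X, chr16:56716132-56716431, plus strand, 4 cores: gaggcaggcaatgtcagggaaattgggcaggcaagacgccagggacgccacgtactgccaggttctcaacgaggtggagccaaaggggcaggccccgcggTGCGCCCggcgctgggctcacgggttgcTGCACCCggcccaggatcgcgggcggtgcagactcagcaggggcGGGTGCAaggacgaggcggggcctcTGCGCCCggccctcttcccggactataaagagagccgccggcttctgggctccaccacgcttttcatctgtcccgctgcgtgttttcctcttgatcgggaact
SLC30A1, chr1:211752454-211752753, minus strand, 2 cores: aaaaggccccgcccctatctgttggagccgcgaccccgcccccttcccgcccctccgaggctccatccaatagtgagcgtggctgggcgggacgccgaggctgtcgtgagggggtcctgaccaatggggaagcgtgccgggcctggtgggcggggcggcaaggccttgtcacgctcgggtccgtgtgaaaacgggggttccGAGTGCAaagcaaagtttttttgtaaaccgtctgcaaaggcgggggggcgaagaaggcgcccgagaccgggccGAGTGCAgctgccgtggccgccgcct
SLC30A10, chr1:220101850-220102149, minus strand, 0 cores: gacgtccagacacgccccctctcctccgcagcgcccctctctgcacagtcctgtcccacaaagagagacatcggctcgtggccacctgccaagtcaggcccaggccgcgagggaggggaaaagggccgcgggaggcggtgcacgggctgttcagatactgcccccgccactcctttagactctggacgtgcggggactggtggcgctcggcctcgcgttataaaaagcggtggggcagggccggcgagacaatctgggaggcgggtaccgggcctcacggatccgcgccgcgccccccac
A match describes letters only and does not show binding.

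Per kilobase of annotated exon, the importer gene SLC39A14 had the highest level of the members, with a mean of 232 CPM per kb over the 12 libraries. SLC39A7, which encodes a zinc channel that releases zinc from the endoplasmic reticulum and Golgi, followed at 91.4 CPM per kb. MT2A came next at 86.1 CPM per kb, and the ranges of SLC39A7 (58.3 to 148) and MT2A (62.1 to 117) overlapped. MT1E was the next metallothionein at 24 CPM per kb, and MT1X was the lowest of them at 3.04 CPM per kb. These places depend on the annotated length. MT1X was divided by 1727 bases, its whole locus in 1 merged exon, and MT1A by 396 bases. MT2A was likewise divided by its whole locus, 914 bases. In CPM, without length, MT1A was the lowest metallothionein at 1.62, and MT1X stood at 5.25. SLC30A3, SLC39A8 and SLC30A4 were last, at 1.33, 0.206 and 0.0502 CPM per kb. The same genes took the first 3 and last 3 places with the length of the longest transcript. For MT2A (903 against 914 bases) and MT1X (1727 in both) the lengths hardly differ, so this is no separate check of their places.

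**Figure D1:**
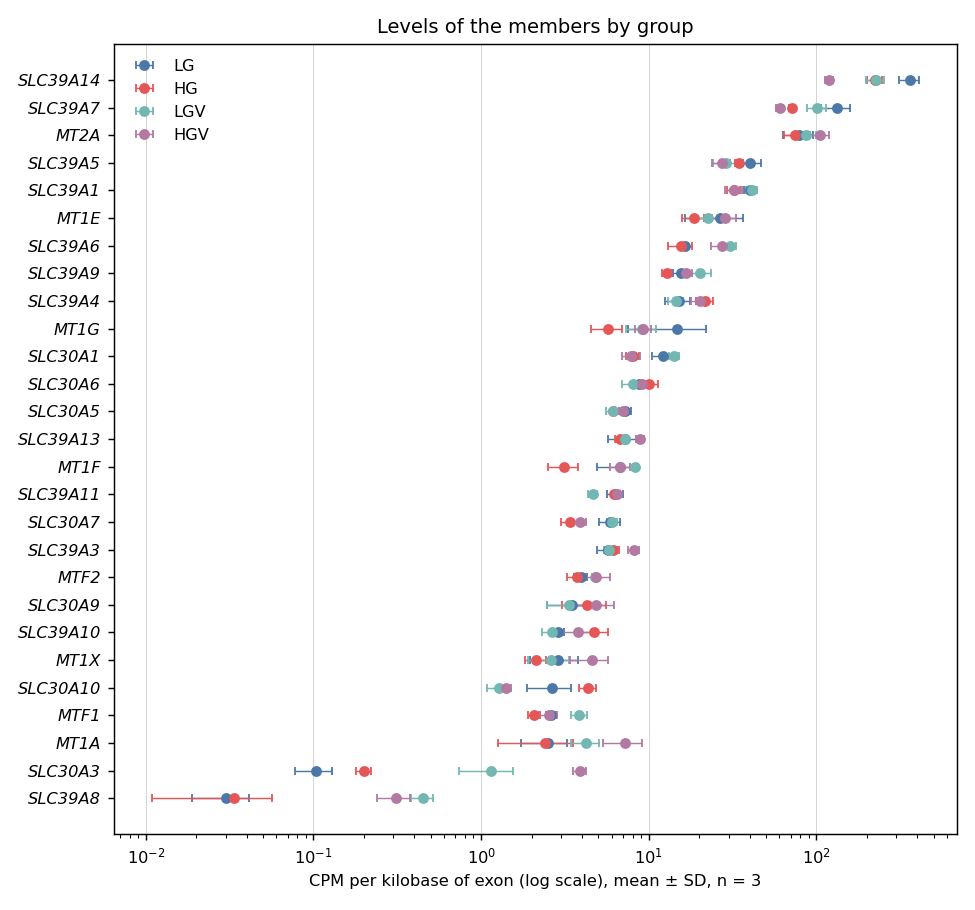
Level of 27 members in CPM per kilobase of exon (log scale), as mean ± SD over 3 libraries for LG, HG, LGV and HGV. SLC39A14 is highest and SLC39A8 lowest of those drawn. SLC30A4, which had 0 reads in 1 library, is left out.

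VPA in high glucose was followed by higher levels of all 6 metallothionein genes. HGV was compared with HG to ask what VPA does under hyperglycaemic conditions. Over all genes tested, 25.8% were called higher and 20.2% lower (edgeR quasi-likelihood F test, FDR ≤ 0.05), and of the 28 members 13 were higher and 3 lower. Of the 13, SLC30A4 and SLC39A8 averaged under 10 reads in HG and passed the count filter through HGV alone. Without both, 11 of 26 members were higher and 3 lower. The shares of all genes were not recounted without genes that passed in this way. With library size only, 5182 of all genes were higher and 2424 lower, in place of 4184 and 3272. The median log2 fold change was 0.90 over the metallothioneins and 0.02 over all genes.

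MT2A, the most abundant of them and singled out after its values were seen, stood at 74.9, 56.8 and 85.1 CPM in LG, at 59.9, 65.8 and 77.8 in HG, at 72.3, 72.8 and 92.3 in LGV and at 98.6, 106.6 and 82 in HGV. All HGV libraries lay above all HG libraries, with a log2 fold change of 0.50 ± 0.13 (SE; FDR = 0.00704). MT1E stood at 23.2, 20.3 and 40 CPM in LG, at 19, 17 and 22.7 in HG, at 21.6, 20.8 and 28.4 in LGV and at 26.8, 35.4 and 27.3 in HGV. It rose 1.53-fold from HG to HGV (FDR = 0.00449), and the third LG library stood far above the other two.

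MT1F stood at 10.7, 10.3 and 16.4 CPM in LG, at 6.21, 4.49 and 6.69 in HG, at 15.1, 15.4 and 15.8 in LGV and at 11, 14.4 and 12.2 in HGV. Its level in HG was below that of every library of the other groups, and it rose 2.16-fold from HG to HGV (log2 1.11 ± 0.17, SE; FDR = 0.000212). MT1G stood at 8.64, 7.34 and 17.3 CPM in LG, at 5.2, 3.35 and 4.37 in HG, at 7.5, 5.33 and 7.82 in LGV and at 6.35, 7.8 and 6.76 in HGV. It rose 1.62-fold from HG to HGV (FDR = 0.00758), and the HGV libraries lay within the range of LGV. Of the 50-base windows of their exons, the length of a read, 84.8% for MT1G and 86% for MT1E occurred once in the genome. The study counted reads above a map quality threshold only, so reads from the other windows may be missing from these counts.

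MT1X stood at 5.05, 3.32 and 6.46 CPM in LG, at 3.96, 3.08 and 3.98 in HG, at 5.91, 3.51 and 4.16 in LGV and at 6.81, 10.2 and 6.59 in HGV. The HGV libraries were the highest of all 12, and the rise from HG was 2.15-fold (log2 1.10 ± 0.20, SE; FDR = 0.000694). A long noncoding RNA on the same strand covers 18.6% of its exon bases. MT1A stood at 1.01, 0.674 and 1.28 CPM in LG, at 0.507, 1.41 and 0.924 in HG, at 1.95, 1.33 and 1.76 in LGV and at 2.33, 3.73 and 2.53 in HGV. It rose 3.02-fold from HG to HGV (log2 1.60 ± 0.32, SE; FDR = 0.00134), from 16 to 47 reads per library to 76 to 157.

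**Figure D2:**
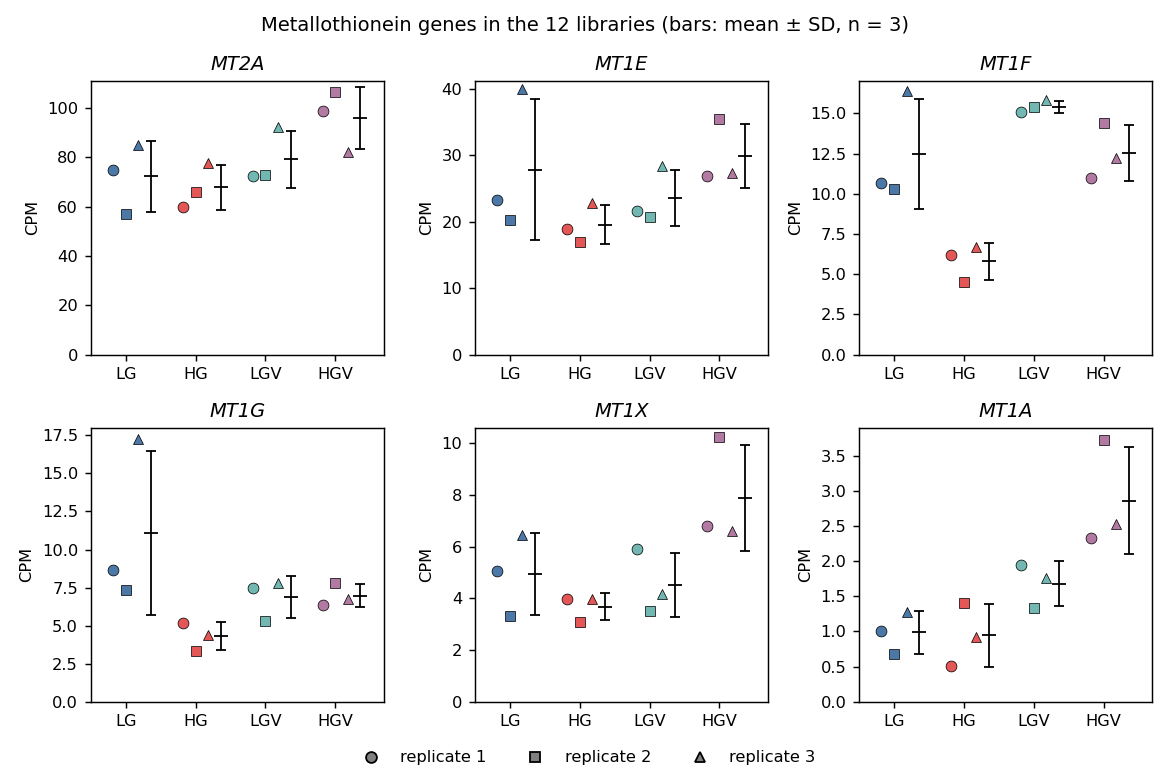
CPM of the 6 metallothionein genes in each of the 12 libraries (points; shape gives the replicate number), with mean ± SD of the 3 libraries per group. The HGV points lie above the HG points for every gene, and the third LG library is the highest LG point in every panel.

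In low glucose, none of the 6 metallothioneins was called between LGV and LG, a comparison in which 21.7% of all genes were called higher and 19.9% lower. With library size only, 4500 of all genes were higher and 1956 lower, in place of 3461 and 3177. At an unadjusted p under 0.05, MT1A (log2 0.78 ± 0.31, SE; FDR = 0.0538) and MT1G (log2 -0.68 ± 0.28; FDR = 0.0639) differed, and 2 were called by edgeR's likelihood ratio test and 1 by DESeq2. The result for MT1A and MT1G depended on the processing. MT1A was also called higher with upper quartile factors (FDR = 0.0413), library size only (FDR = 0.0422), a filter of 1 CPM in 3 libraries (FDR = 0.0442) and the likelihood ratio test (FDR = 0.0357). MT1G was called lower with the likelihood ratio test (FDR = 0.0463), DESeq2 (FDR = 0.0316) and one fit of the 12 libraries (FDR = 0.0356). The third LG library decided several of these values. Without it, MT1A (log2 1.05, FDR = 0.018) and MT1F (log2 0.58, FDR = 0.00893) were called higher in LGV, and MT1G stood at log2 -0.18 (FDR = 0.539). Without the second LG library, MT1G was called lower (log2 -0.92, FDR = 0.00729).

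Whether VPA acted differently at the 2 glucose levels was tested with the interaction term over the 12 libraries. It called 0.0427% of all genes and 0 of 28 members, although 9 members and 11.3% of all genes had an unadjusted p under 0.05. The likelihood ratio test and DESeq2 called 1 member each. The log2 estimates were positive for all 6 metallothioneins, highest for MT1G at 1.39 ± 0.37 (SE; FDR = 0.132) and MT1X at 1.23 ± 0.35 (FDR = 0.159), and lowest for MT2A at 0.37 ± 0.21 (FDR = 0.545). The median over all genes was 0.04, and the share of all genes with a positive estimate was not counted. All 6 genes are neighbours measured in the same libraries, so their signs are not independent. Without the second LG library, MT1G (FDR = 0.0239) and MT1X (FDR = 0.0346) were called, and without the third, MT1G stood at log2 0.91 (FDR = 0.207). Leaving out the second LG library gave 217 calls over all genes, in place of 7. A difference between the VPA responses at the 2 glucose levels was therefore not shown by the quasi-likelihood test.

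Glucose alone was compared in HG against LG, with 12% of all genes higher and 12.7% lower. This balance turned with the scaling, from 1854 higher and 1959 lower to 2458 and 1366 with upper quartile factors and 2172 and 1297 with library size only. Of 26 members tested, 4 were higher and 6 lower, and their median log2 fold change was -0.13 against 0.01 for all genes. MT1G fell 2.55-fold (log2 -1.35 ± 0.27, SE; FDR = 0.00134) and MT1F fell 2.12-fold (log2 -1.09 ± 0.21; FDR = 0.00114). Without the third LG library the differences were log2 -0.87 for MT1G (FDR = 0.00299) and log2 -0.83 for MT1F (FDR = 0.00258). The other 4 metallothioneins were not called, with log2 values from -0.49 for MT1E to -0.03 for MT1A, although MT1E was called lower without the second LG library (FDR = 0.0299). Under VPA, in HGV against LGV, 21.2% of all genes were higher and 19.5% lower, and 9 of 28 members were higher and 6 lower. With upper quartile factors, 4126 of all genes were higher and 2375 lower, in place of 3444 and 3160. MT1X (log2 0.78 ± 0.22, SE; FDR = 0.00844) and MT1A (log2 0.75 ± 0.25; FDR = 0.0238) were higher in HGV. MT1X lost this call without the second HGV library (FDR = 0.0522). MT1A lost it without the second HGV library (FDR = 0.119) and without the second (FDR = 0.106) or the third (FDR = 0.0611) LGV library. The 4 comparisons share libraries and are not independent of each other.

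Summed over the 6 genes, metallothionein RNA was 129.5 ± 34.3 CPM (SD, n = 3) in LG, 102.1 ± 12.5 in HG, 131.2 ± 16.7 in LGV and 155.8 ± 20.7 in HGV. MT2A made up 51.1% to 69.2% of this sum in each library, and no test was made on the sum.

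MTF1 was called higher with VPA in low glucose and not in high glucose, and the difference between these responses did not pass its own test. It stood at 21.7, 21.9 and 19.2 CPM in LG, at 18, 16.5 and 15.2 in HG, at 26.8, 32.9 and 32.5 in LGV and at 22.8, 18 and 19.9 in HGV. All LGV libraries lay above all others. The rise from LG to LGV was 1.48-fold (log2 0.57 ± 0.13, SE; FDR = 0.00323), HGV was 1.54-fold below LGV (FDR = 0.00137), and HGV against HG gave log2 0.29 ± 0.13 (FDR = 0.0892). The interaction estimate was log2 -0.27 ± 0.19 (FDR = 0.64). MTF2 was called in none of the comparisons. It stood at 20.8, 24.8 and 23.9 CPM in LG, at 25.3, 21.5 and 19.6 in HG, at 28.4, 26.9 and 29.3 in LGV and at 26.9, 23.2 and 35.4 in HGV. With VPA its log2 values were 0.29 (FDR = 0.0792) in low and 0.36 (FDR = 0.0823) in high glucose.

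**Figure D3:**
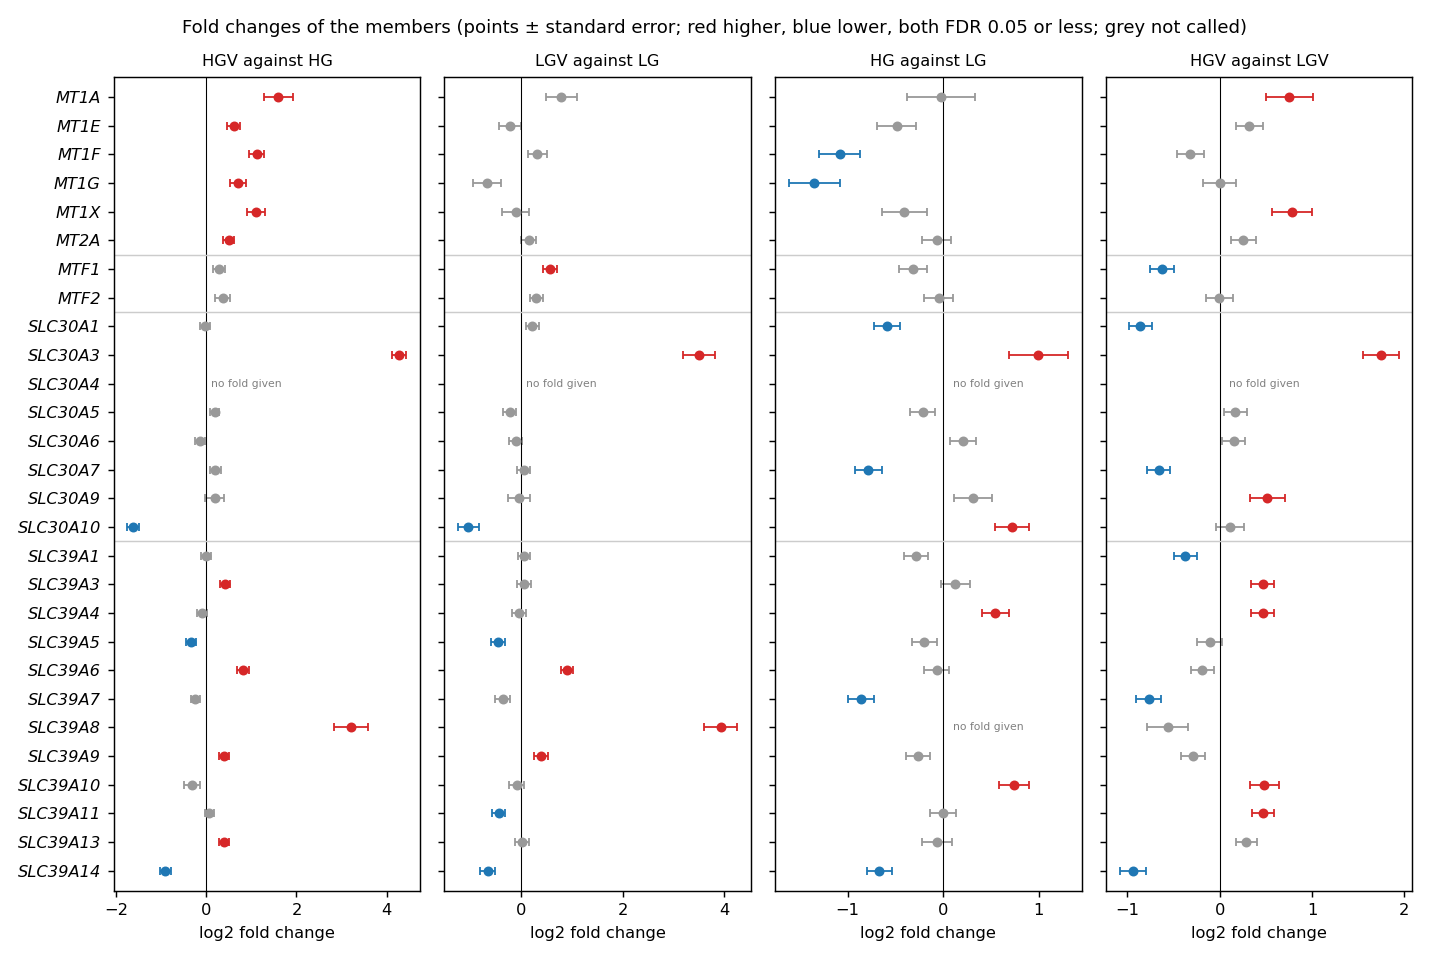
Log2 fold change ± standard error of each member in the 4 comparisons of groups (edgeR quasi-likelihood fit; red higher and blue lower at FDR ≤ 0.05, grey not called). All 6 metallothioneins are red in HGV against HG and grey in LGV against LG; no fold is drawn where a gene was not tested or where SLC30A4 lay at the floor.

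Among the SLC30A exporter genes, VPA was followed by a strong rise of SLC30A3 and a fall of SLC30A10 at both glucose levels. SLC30A3 encodes ZnT3, which loads zinc into synaptic vesicles of neurons. It stood at 0.748, 0.449 and 0.587 CPM in LG, at 1.01, 1.2 and 1.23 in HG, at 9.3, 4.87 and 5.63 in LGV and at 22.7, 20.3 and 24.2 in HGV. No 2 groups overlapped. The rise was 19.4-fold from HG to HGV (log2 4.28 ± 0.16, SE; FDR = 6.83e-09) and 11.3-fold from LG to LGV (log2 3.50 ± 0.31; FDR = 8.04e-07). It was also higher in HGV than in LGV (3.35-fold, FDR = 3.65e-06) and in HG than in LG (1.99-fold, FDR = 0.0247). The last call rested on 18 to 44 reads per library and was lost without the second (FDR = 0.0775) or the third (FDR = 0.0837) HG library or the second LG library (FDR = 0.0783), and with DESeq2 (FDR = 0.0528).

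SLC30A10 stood at 25.2, 17 and 31 CPM in LG, at 44.9, 36.1 and 38.2 in HG, at 13.8, 10.9 and 10.6 in LGV and at 12.8, 12 and 13.9 in HGV. It fell 3.09-fold from HG to HGV (log2 -1.62 ± 0.12, SE; FDR = 6.36e-07) and 2.07-fold from LG to LGV (log2 -1.05 ± 0.20; FDR = 0.000759). Without VPA it was 1.65-fold higher in HG than in LG (FDR = 0.00642), while the VPA groups overlapped (log2 0.12 ± 0.15; FDR = 0.567). The interaction estimate for SLC30A10 was log2 -0.57 ± 0.25 (FDR = 0.39), so a difference between these glucose responses was not shown. SLC30A4, singled out after its values were seen, encodes a transporter of endosomal and secretory vesicles. It had 0 to 2 reads per LG library and 1 to 3 per HG library, against 12 to 21 in LGV and 24 to 52 in HGV. Against the mean floor of 3 reads per library it was at least 5.82-fold higher in LGV than in LG and at least 11.4-fold higher in HGV than in HG.

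Glucose separated 2 further exporters. SLC30A1, the plasma membrane zinc exporter, stood at 59.9, 80.5 and 75.3 CPM in LG, at 52, 44.5 and 45.6 in HG, at 77.7, 88.8 and 82.6 in LGV and at 44.8, 41.7 and 52.6 in HGV. Both high glucose groups lay below both low glucose groups. The fall was 1.5-fold in HG against LG (log2 -0.58 ± 0.14, SE; FDR = 0.0046) and 1.81-fold in HGV against LGV (log2 -0.86 ± 0.12; FDR = 4.51e-05). With VPA its log2 values were -0.03 in high glucose and 0.22 in low glucose, neither called. SLC30A7, which moves zinc into the early secretory pathway, stood at 47.4, 58.9 and 45.8 CPM in LG, at 32.9, 26.1 and 28.1 in HG, at 49.9, 56.3 and 49.9 in LGV and at 36.5, 33 and 30.6 in HGV. It too was lower in every high glucose library, by 1.72-fold in HG against LG (FDR = 0.000727) and 1.58-fold in HGV against LGV (FDR = 0.000374). SLC30A5 and SLC30A6, whose products act together in the secretory pathway, were called in none of the comparisons. SLC30A9 was called in HGV against LGV (log2 0.52 ± 0.19, SE; FDR = 0.0395), a call lost without the first (FDR = 0.0749) or the third (FDR = 0.248) HGV library or the second (FDR = 0.192) or the third (FDR = 0.0623) LGV library, with library size only (FDR = 0.0666) and in one fit of the 12 libraries (FDR = 0.0783).

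**Figure D4:**
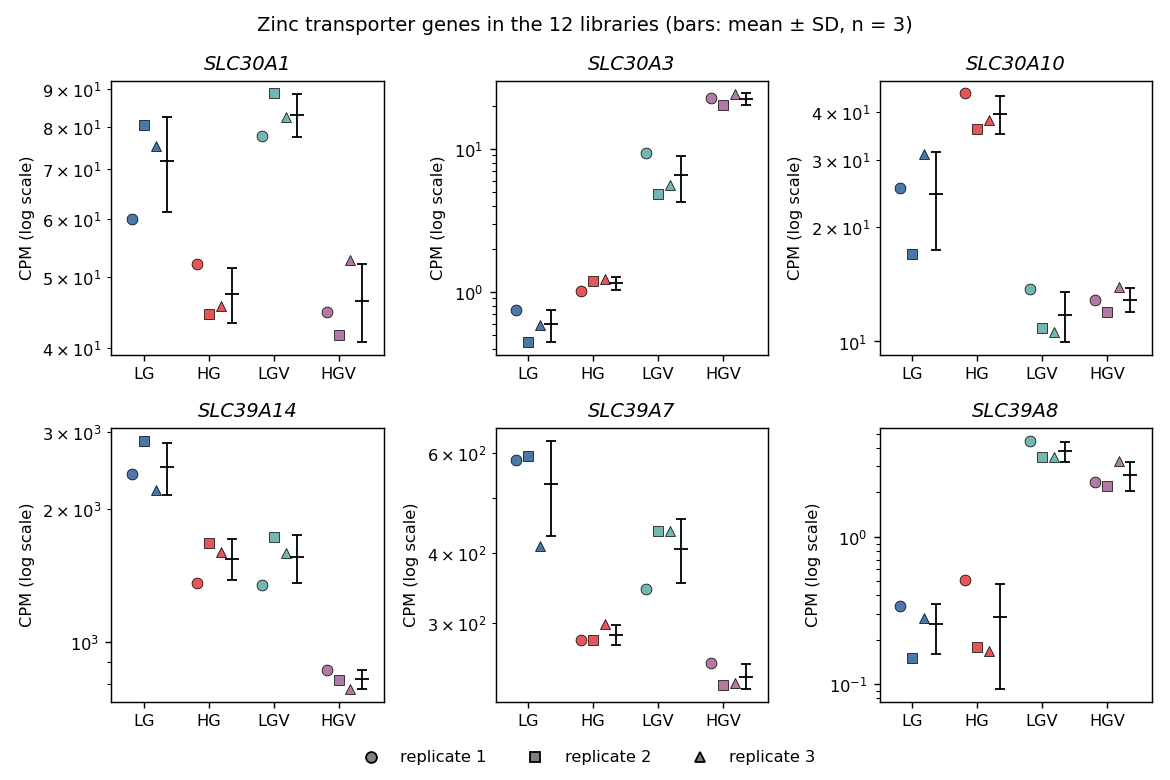
CPM (log scale) of 6 zinc transporter genes in each of the 12 libraries (points; shape gives the replicate number), with mean ± SD of the 3 libraries per group. SLC30A3 and SLC39A8 are higher and SLC30A10 and SLC39A14 lower with VPA at both glucose levels, while SLC30A1 and SLC39A7 are lower in high glucose.

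Among the SLC39A importers, SLC39A14 fell both with glucose and with VPA. It stood at 2407, 2862 and 2210 CPM in LG, at 1359, 1674 and 1594 in HG, at 1344, 1726 and 1593 in LGV and at 864, 818 and 781 in HGV. LG was highest, HGV lowest, and HG and LGV overlapped. The fall with VPA was 1.88-fold in high glucose (log2 -0.91 ± 0.12, SE; FDR = 4.05e-05) and 1.59-fold in low glucose (log2 -0.67 ± 0.15; FDR = 0.00207). The fall with glucose was 1.59-fold without VPA (FDR = 0.00165) and 1.92-fold with it (FDR = 7.16e-05). The interaction estimate was log2 -0.23 ± 0.19 (FDR = 0.693).

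SLC39A8, which encodes a carrier of zinc, manganese and cadmium, rose with VPA from a low level. It stood at 0.337, 0.15 and 0.281 CPM in LG, at 0.507, 0.179 and 0.168 in HG, at 4.5, 3.48 and 3.47 in LGV and at 2.36, 2.21 and 3.29 in HGV. Without VPA these were 6 to 16 reads per library, and with it 77 to 150. The rise was 15.3-fold from LG to LGV (log2 3.93 ± 0.33, SE; FDR = 4.16e-07) and 9.24-fold from HG to HGV (log2 3.21 ± 0.37; FDR = 1.83e-05). The latter was log2 3.87 without the first HG library. With a mean under 10 reads in LG and in HG, SLC39A8 was tested in both comparisons through the VPA libraries alone. SLC39A6, a plasma membrane importer, stood at 59.6, 62.3 and 60.5 CPM in LG, at 67.4, 49.8 and 54.7 in HG, at 107.2, 107.9 and 122.8 in LGV and at 103.6, 85.4 and 111.8 in HGV. Every VPA library lay above every library without VPA, and the rise was 1.87-fold in low (FDR = 1.82e-05) and 1.75-fold in high glucose (FDR = 0.00039).

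SLC39A7 and SLC39A10 moved in opposite directions with glucose. SLC39A7 stood at 582.5, 593.8 and 411.6 CPM in LG, at 279.8, 279.7 and 299.1 in HG, at 344.9, 436.8 and 436.3 in LGV and at 255.4, 233.3 and 235.5 in HGV. It fell 1.82-fold from LG to HG (log2 -0.86 ± 0.14, SE; FDR = 0.000218) and was 1.7-fold lower in HGV than in LGV (FDR = 0.000206). With VPA it gave log2 -0.25 (FDR = 0.0536) in high and -0.37 (FDR = 0.0664) in low glucose. RXRB on the opposite strand overlaps 9% of its exon bases, and the sources do not say if reads were counted by strand. SLC39A10, a plasma membrane importer, stood at 21.4, 18 and 20 CPM in LG, at 39.9, 26.2 and 31.6 in HG, at 20.5, 15.8 and 19 in LGV and at 24.2, 21.8 and 32.4 in HGV. It rose 1.67-fold from LG to HG (FDR = 0.00255) and was 1.4-fold higher in HGV than in LGV (FDR = 0.018), a call lost without the third HGV library (FDR = 0.144) or the second LGV library (FDR = 0.0923).

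The other 7 SLC39A genes are described by their differences. SLC39A4, the importer whose loss causes acrodermatitis enteropathica, was higher with glucose both without VPA (log2 0.55 ± 0.14, SE; FDR = 0.00933) and with it (log2 0.46 ± 0.13; FDR = 0.00728), the latter lost without the third LGV library (FDR = 0.0648). SLC39A9 was higher with VPA by log2 0.39 at both glucose levels (FDR = 0.00731 in high and 0.0352 in low glucose). The low glucose call was lost when the second (FDR = 0.16) or the third (FDR = 0.11) LGV library or the first (FDR = 0.123) or the third (FDR = 0.0678) LG library was left out. SLC39A5 was lower with VPA by log2 -0.34 (FDR = 0.0232) in high and -0.46 (FDR = 0.0183) in low glucose. Its call in high glucose was lost without the first HGV library (FDR = 0.105) or the second (FDR = 0.0693) or the third (FDR = 0.101) HG library, and that in low glucose without the first (FDR = 0.0817) or the third (FDR = 0.0831) LGV library or the first LG library (FDR = 0.107). With library size only neither call held (FDR = 0.108 and 0.0648), and with upper quartile factors that in high glucose was lost too (FDR = 0.0574).

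SLC39A3 was higher in HGV than in HG (log2 0.42, FDR = 0.0112) and than in LGV (log2 0.47, FDR = 0.00558), and lost the former call without the first HG library (FDR = 0.0507). SLC39A13 was higher in HGV than in HG alone (log2 0.40, FDR = 0.00926). SLC39A11 was lower in LGV than in LG (log2 -0.45, FDR = 0.0127) and higher in HGV than in LGV (log2 0.47, FDR = 0.00439). The former call was lost without the third LGV library (FDR = 0.0906) or the third LG library (FDR = 0.0608) and with library size only (FDR = 0.14). SLC39A1 was lower in HGV than in LGV (log2 -0.37, FDR = 0.0226), a call lost without the first (FDR = 0.07) or the third (FDR = 0.12) HGV library or the second (FDR = 0.0938) or the third (FDR = 0.0867) LGV library and with upper quartile factors (FDR = 0.0707). In an annotation later than the one used for counting, another protein-coding gene on the same strand shares 60.8% of the exon bases of SLC39A1. Whether the counting annotation held that gene was not checked, and its effect on the SLC39A1 count is not known.

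In LGV against LG, 5 of 27 members tested were higher and 4 lower, against 21.7% and 19.9% of all genes. Without SLC39A8, which passed the count filter through LGV alone, 4 of 26 members were higher and 4 lower. The shares of all genes were again not recounted without such genes. Of the 27 members tested in both VPA comparisons, 4 were higher in both (SLC30A3, SLC39A6, SLC39A8 and SLC39A9) and 3 lower in both (SLC30A10, SLC39A5 and SLC39A14). SLC39A8 entered both comparisons through the VPA libraries alone. Over all genes tested in both, 17.5% were higher and 14.8% lower in both. Of the 26 members tested in both glucose comparisons, 3 were higher in both (SLC30A3, SLC39A4 and SLC39A10) and 4 lower in both (SLC30A1, SLC30A7, SLC39A7 and SLC39A14), against 8.85% and 9.9% of all genes. MTF2, SLC30A5 and SLC30A6 were called in none, and SLC30A3 and SLC39A14 in all 4.

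Of 28 other genes of metal handling (copper and iron transport and storage, and regulators of metallothionein genes), 22 were in the table. In HGV against HG, 5 were higher and 6 lower, against 25.8% and 20.2% of all genes. In LGV against LG 3 were higher and 7 lower, against 21.7% and 19.9%. ATP7A, the copper-exporting ATPase, rose with VPA by log2 1.33 ± 0.20 (SE; FDR = 0.000134) in high and 1.53 ± 0.17 (FDR = 7.04e-06) in low glucose. SLC40A1 (ferroportin), the iron exporter, rose by log2 1.12 (FDR = 8.98e-05) and 0.59 (FDR = 0.00168). KEAP1, the inhibitor of NRF2, fell by 1.12 (FDR = 4.05e-06) and by 1.11 (FDR = 3.81e-06) on the log2 scale. The NRF2 gene NFE2L2 (FDR = 0.305 and 0.103) and HMOX1 (FDR = 0.149 and 0.305) were not called in high and low glucose. In HG against LG, 1 was higher and 8 lower, against 12% and 12.7% of all genes, and in HGV against LGV 5 were higher and 7 lower, against 21.2% and 19.5%. The gene higher in HG was CP (ceruloplasmin), the plasma copper carrier, by log2 1.20 ± 0.19 (SE; FDR = 0.000198). With VPA, CP was lower, at log2 -0.95 (FDR = 0.000296) in high and -0.99 (FDR = 0.000923) in low glucose. The light chain of ferritin, FTL, was lower in HG (log2 -0.57, FDR = 0.00332), as was the transferrin receptor TFRC (log2 -0.65, FDR = 0.00209).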

How the data were processed

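RNA-seq counts of 12 HepG2 libraries, 3 per group, were analysed. Single-end reads of 50 nt were trimmed and mapped to GRCh37 by STAR, and the authors deposited raw counts per Ensembl gene from featureCounts, without genes averaging under 10 reads. Use of strand in counting is not stated. Exon lengths, overlaps and windows came from a GENCODE annotation of GRCh37, later than the Ensembl annotation that the authors used for counting. The labels name no batch.

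Counts were tested in R 4.3.3 with edgeR 4.0.16 (TMM, quasi-likelihood F test, mean count of 10 or more over the libraries compared, Benjamini-Hochberg over all genes tested, FDR ≤ 0.05). The interaction used all 12 libraries. Alternatives were other scaling factors, filters, the likelihood ratio test, DESeq2 1.42.0, an FDR of 0.01, a replicate block, one fit of all libraries, and each library left out. Figures were drawn with matplotlib 3.10.9. The members and lists were chosen with earlier results of these data known. Values in every library are given for members with a mean of at least 1 CPM that were called in a comparison of groups at an absolute log2 fold change of at least 0.58, and for MTF1 and MTF2.

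The test was also run on simulated counts, for HGV against HG and the interaction only. Far fewer genes were changed there than were called in HGV against HG, all by the same fold and balanced in direction. Every recovered change had the right direction, a result that changes of this kind make likely. Where each simulated gene kept its own dispersion, the share of false calls was somewhat above the nominal FDR, and where dispersions followed the trend it was below it. The first simulated interaction exceeded the limit set for false calls, and the limit was then applied to the sum over 10 simulations instead. Calls close to the threshold should be read with this in mind.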

Additional observations from a re-analysis of the deposited data

Results flagged for a closer look

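SLC30A5 was picked from the members because its libraries separated fully in both VPA comparisons, in opposite directions. It stood at 34.9, 32.6 and 32.8 CPM in HG and at 39.2, 35.6 and 39.2 in HGV (log2 0.18 ± 0.10, SE; FDR = 0.171), and at 36.9, 38.1 and 43.1 in LG and at 36.8, 30.6 and 32.7 in LGV (log2 -0.23 ± 0.13; FDR = 0.165). Every HGV library was above every HG library and every LGV library below every LG library. This separation was the rule by which the gene was picked and is no separate support. The share of all genes that meet this rule was not counted. Neither change passed the threshold, and the interaction, log2 0.42 ± 0.17 (FDR = 0.316), did not pass it either. A noncoding RNA on the opposite strand overlaps 9.8% of the exon bases.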

How the results depend on the processing

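Without SLC30A4, whose 2 calls were not refitted singly because of its few reads, 48 calls of members gave 720 values under the alternatives, of which 681 passed the threshold in the same direction, 39 did not pass it and 0 reversed. The 6 metallothionein calls in HGV against HG passed under every alternative run. For interaction, the likelihood ratio test and DESeq2 each called 1 member, MT1G (FDR = 0.0311 and 0.0269), and called 202 and 162 of all genes against 7. With 1 library left out, the members called ranged from 9 to 12 in HG against LG, from 15 to 18 in HGV against HG, from 6 to 11 in LGV against LG (6 without the third LGV library), from 10 to 16 in HGV against LGV (10 without the second LGV library) and from 0 to 2 for the interaction. Over all genes, these ranges were 1933 to 5338, 6083 to 7793, 4942 to 6986, 4516 to 7228 and 1 to 217. At an FDR of 0.01, 6 members in LGV against LG and 10 in HGV against LGV were called, against 9 and 15. Of all genes, 4607 and 4263 were called at that FDR, against 6638 and 6604.

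Metallothionein values that were not called gave 329 values, of which 21 passed the threshold. Beside those given above for LGV against LG and the interaction, these were, in HGV against LGV, MT1E (FDR = 0.0351) and MT2A (FDR = 0.0405) with upper quartile factors, MT1E without the third LGV library (FDR = 0.0377) and MT1F, lower, without the second HGV library (FDR = 0.0242), and MT1E in HG against LG. Some of the values not called changed sign, with FDR of 0.517 or more. In HG against LG, MT1A gave 0.0604 with upper quartile factors and 0.0587 with library size only, and from -0.44 to 0.28 with 1 library left out; MT2A gave 0.0219 and 0.0195 in these scalings and from -0.193 to 0.0724. In LGV against LG, MT1X gave 0.0485 with library size only and from -0.34 to 0.15 with 1 library left out, MT1E from -0.42 to 0.15 and MT2A from -0.0106 to 0.294. In HGV against LGV, MT1G gave 0.09001 with upper quartile factors, 0.076 with library size only, 0.0018 without the filter, 0.0072 with the CPM filter, 0.012 with the replicate block, 0.019 with one fit, and from -0.15 to 0.10 with 1 library left out. Library size only moved the median of all genes to 0.11 in HG against LG, to 0.15 in HGV against HG and to 0.16 in LGV against LG, and the split of higher and lower members in LGV against LG from 5 and 4 to 8 and 2. Upper quartile factors moved it in HGV against LGV from 9 and 6 to 12 and 5.

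Deviations of same-numbered libraries had mean correlations from -0.0776 to 0.086, and those of differently numbered libraries from -0.0466 to 0.0397. Deviations were taken from the group mean and sum to 0 within a group. Both means of a comparison are therefore tied and are not separate values. The same-numbered mean was positive in each comparison except HG against LG. With 3 libraries per group these values do not settle whether the numbers pair the libraries, and the main test took them as unpaired. With the replicate block, 10 members were called in HG against LG, 18 in HGV against HG, 12 in LGV against LG, 16 in HGV against LGV and 0 for the interaction. Of all genes it called 3351, 8229, 6971, 7308 and 13, in place of 3813, 7456, 6638, 6604 and 7. The block brought MT1A (FDR = 0.0427) and MT1G (FDR = 0.0168) past the threshold in LGV against LG.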
